A study of Mus musculus with 6 samples.

Results

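The genes described here are 40 genes of mitosis, among them Aurkb, taken by symbol from a list of kinases, cyclins, kinetochore, spindle, cytokinesis and chromosome genes. All 40 symbols were found among the 24421 in the count files. All 40 also passed the filter on low counts, which kept 11144 genes for testing. Aurkb and Oip5 reached the level of that filter in the IgG libraries alone, so at their 15C4 level they could be tested only because they were higher in IgG. RNA was sequenced from cells sorted by flow cytometry as the endothelial population of B16F0 tumours. B16F0 is a transplantable mouse melanoma line, and the tumours grew for 17 days under the skin of C57BL/6 mice. One group of mice received the antibody 15C4, which is directed against the secreted glycoprotein LRG1, and the other group received IgG, both at 50 mg/kg every 3 days. Each group has 3 libraries, called 15C4 1 to 3 and IgG 1 to 3 here, and the labels give neither the age of the mice nor whether each library came from its own animal. The spread behind every p-value is thus that of the 3 libraries of a group, and part of it may be technical.

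Cells copy their chromosomes and then divide them in mitosis, a short phase driven by cyclin-dependent kinase 1 with its cyclins. The chromosomal passenger complex, built from the kinase Aurora B (Aurkb), INCENP, survivin (Birc5) and borealin (Cdca8), corrects faulty attachments of chromosomes to the spindle and later acts in cytokinesis. Most of these genes are transcribed together late in the cell cycle, so their RNA is commonly read as a sign of dividing cells. In a tumour such cells may be tumour cells, vessel cells or leukocytes.

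The summed RNA of the 40 genes overlapped between 15C4 and IgG. For 5 of the genes, Aurkb, Oip5, Nusap1, Ncaph and Bub1b, each 15C4 library was lower than each IgG library, which held for 6.64% of all tested genes. Aurkb and Oip5 had at most 16 counts in any 15C4 library, with log2 fold changes of -5.71 and -6.49, while the other 3 had at least 1 pair of libraries close together. None of the 40 passed the main test, that of edgeR, and DESeq2, which called 0.182% of all genes as lower, called Aurkb. RNA of the other 3 members of the passenger complex was present in every library of both groups.

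Late cell cycle genes often carry 2 short promoter elements, the cell cycle genes homology region (CHR, letters TTTGAA) and the CCAAT box, and the sequences are shown because Oip5 and Nusap1 are neighbours while Cdca8 is a partner of Aurkb with overlapping groups. Windows of 300 bases, from 250 before to 50 after the gene start, were matched by symbol for 33 of the 40 genes in the RefSeq table of GRCm38.p6. No window was matched for Aurkb, Incenp, Ccna2, Foxm1, Tpx2, Kif20a and Smc4. In the sequences, written 5′ to 3′ on the strand of the gene, capitals mark TTTGAA and CCAAT on either strand.
Oip5, chr2:119618456-119618755, minus strand: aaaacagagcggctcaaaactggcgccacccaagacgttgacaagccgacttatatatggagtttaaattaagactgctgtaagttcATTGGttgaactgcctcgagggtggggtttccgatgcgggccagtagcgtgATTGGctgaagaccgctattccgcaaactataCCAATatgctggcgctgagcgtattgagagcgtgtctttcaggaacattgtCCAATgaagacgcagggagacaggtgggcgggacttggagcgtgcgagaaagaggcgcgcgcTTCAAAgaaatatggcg
Nusap1, chr2:119618048-119618347, plus strand: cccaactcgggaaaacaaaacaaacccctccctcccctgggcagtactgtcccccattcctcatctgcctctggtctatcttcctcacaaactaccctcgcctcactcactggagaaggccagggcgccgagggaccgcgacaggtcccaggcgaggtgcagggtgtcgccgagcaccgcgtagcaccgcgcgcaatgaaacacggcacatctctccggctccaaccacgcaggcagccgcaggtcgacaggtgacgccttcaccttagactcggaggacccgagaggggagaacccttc
Cdca8, chr4:124936868-124937167, minus strand: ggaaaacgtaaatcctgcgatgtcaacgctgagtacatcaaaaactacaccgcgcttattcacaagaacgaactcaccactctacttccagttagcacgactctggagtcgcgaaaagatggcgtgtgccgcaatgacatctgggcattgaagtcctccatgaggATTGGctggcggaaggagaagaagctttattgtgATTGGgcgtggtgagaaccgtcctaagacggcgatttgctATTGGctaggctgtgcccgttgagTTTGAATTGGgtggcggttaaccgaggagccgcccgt

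The window of Oip5 held 4 CCAAT matches upstream of the start and 1 CHR match 34 bases after the start that the window uses. The annotation quoted below starts Oip5 further downstream, at 119618469, which lies inside that match. The window of Cdca8 held 4 CCAAT matches and 1 CHR match, whose last base is shared with the CCAAT match that follows it. The Nusap1 window held neither. Of the 33 windows of mitosis genes, 26 (78.8%) held TTTGAA on either strand and 27 (81.8%) held CCAAT. The same letters were found in 11.6% and 39.1% of the windows of all 8568 tested genes with a window. Both motifs together were found in 24 of the 33 windows (72.7%) against 4.95% of all tested genes. A match describes letters in a window and nothing more. Oip5 and Cdca8 both held the pair, and only the first had groups that did not overlap.

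Oip5 and Nusap1 lie head to head on GRCm38 chromosome 2. The annotation places Oip5 at 119609512 to 119618469 on the minus strand and Nusap1 at 119618298 to 119651244 on the plus strand. Their exons share 172 bases at the 5′ ends, which are 9.67% of the Oip5 exon length and 4.24% of that of Nusap1. The strand setting of the counting is not given in the sources used here, so reads in these bases cannot be told apart. Aurkb, at 69045647 to 69051664 on chromosome 11, shares no exon bases with another annotated gene.

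Some facts of the libraries bear on every value below. Total counts ranged from 5175600 in IgG 1 to 19572202 in 15C4 2. IgG 1 nevertheless had the most genes detected, 13707, against 10413 to 12946 in the other libraries. Markers of the melanocyte lineage summed to between 23510 and 28760 CPM (the count per 1000000 counts of the library) in all 6 libraries. The 13 pan-endothelial markers summed to between 1183 and 2673 CPM in 5 libraries and to 154 CPM in IgG 3. Mitosis RNA of tumour cells and of endothelial cells therefore cannot be told apart in these libraries, nor can fewer dividing cells and less RNA per cell. The first principal component separated 15C4 3 from the rest, and 13.8% of the tested genes had 0 counts in it, while the other libraries lacked 0.278% to 4.55%.

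The summed level of the 40 genes was highest in IgG 1. It was 2716, 2018 and 3830 CPM in 15C4 1, 2 and 3, and 6674, 2456 and 1987 CPM in IgG 1, 2 and 3. The groups overlapped, and the mean was 2855 ± 914 CPM for 15C4 and 3706 ± 2581 CPM for IgG (SD, n = 3 each). IgG 1 held the highest CPM of 31 of the 40 genes (77.5%), while it held the highest CPM of 10.2% of all tested genes. IgG 1 was also the library with the most leukocyte RNA. The 5 general leukocyte markers summed to 218 CPM there, and the other libraries lay between 1.03 and 7.50 CPM. The 12 T and NK cell markers in the counts summed to 607 CPM in IgG 1, to 221 CPM in 15C4 1 and to between 5.16 and 21.6 CPM elsewhere. Ccl5 alone was 213.5 CPM in 15C4 1, and the other 11 markers summed to 7.26 CPM there and 483 CPM in IgG 1, with 11.6 CPM or less in the rest. The 10 macrophage and monocyte markers were all detected in IgG 1, but summed to only 28.0 CPM there, against 52.4 CPM in 15C4 2. Fibroblast markers summed to 94.1 CPM in IgG 1 (Col1a2 24.4 CPM, Col3a1 25.5 CPM), to 153 CPM in 15C4 3 (151 CPM of it Lum) and 4.56 CPM or less elsewhere. Lymphatic endothelial markers reached 1094 CPM in IgG 2, against 11.6 to 63.8 CPM in the others. Pericyte and smooth muscle markers summed to 13.1 to 33.6 CPM in 15C4 and 2.18 to 7.92 CPM in IgG. These sums did not overlap, but different genes made them up and no single marker separated the groups. Acta2 was at 22.2 and 32.2 CPM in 15C4 2 and 3 and at 0 CPM in 15C4 1. In 15C4 1 the sum was mostly Cspg4 (8.45 CPM) and Pdgfrb (4.52 CPM). The part of these cells in the mitosis values was not tested.

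**Figure D1:**
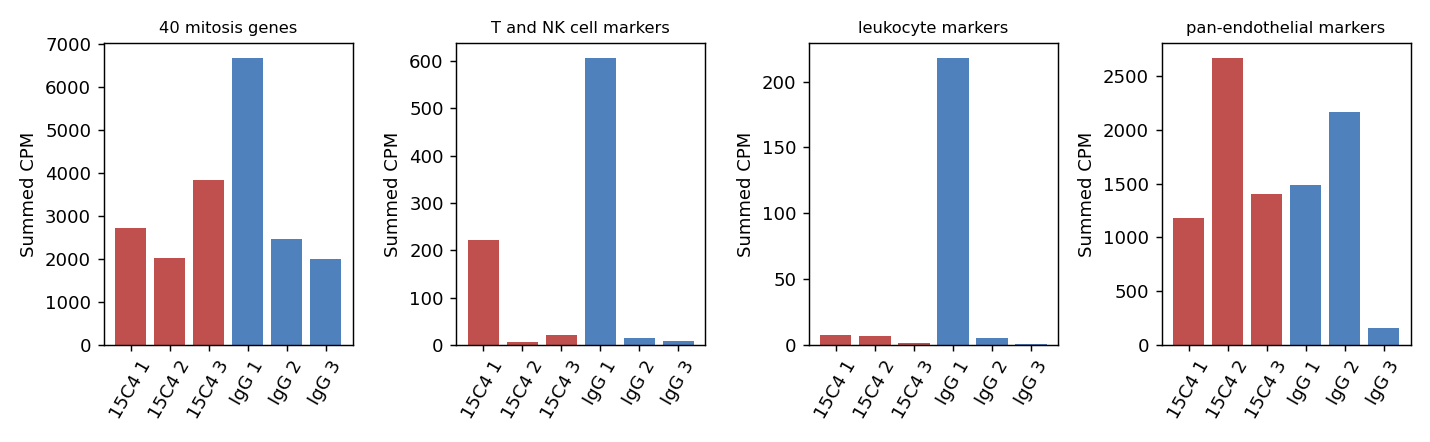
Summed CPM in each library (y axis, linear, from 0) of the 40 mitosis genes and of the T and NK cell, leukocyte and pan-endothelial markers, with 15C4 libraries in red and IgG libraries in blue. IgG 1 has the highest mitosis sum, 6674 CPM, and the highest leukocyte sum, 218 CPM, and IgG 3 the lowest pan-endothelial sum, 154 CPM.

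Detection in 15C4 3 was uneven, for the 40 genes much as for all tested genes. In that library 14 of the 40 (35.0%) had at most 20 counts, against 26.3% of all tested genes, and 6 (15.0%) had 0 counts, against 13.8%: Kif11, Kif2c, Bub1b, Ttk, Kif20a and Ect2. In the same library Ccnb2, Hmmr, Mad2l1, Cenpa, Cenpf and Ncapg had their highest CPM of all 6 libraries, which are 15.0% of the 40 against 18.6% of all tested genes. Mad2l1, for example, a checkpoint protein at unattached kinetochores, was at 227 CPM in 15C4 3 and at 36.2 and 22.1 CPM in 15C4 1 and 2. The median SD of log2 CPM over the 40 genes was 1.07 in 15C4, close to the 0.99 of all tested genes, and 1.10 in IgG, where all tested genes had 0.57.

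**Figure D2:**
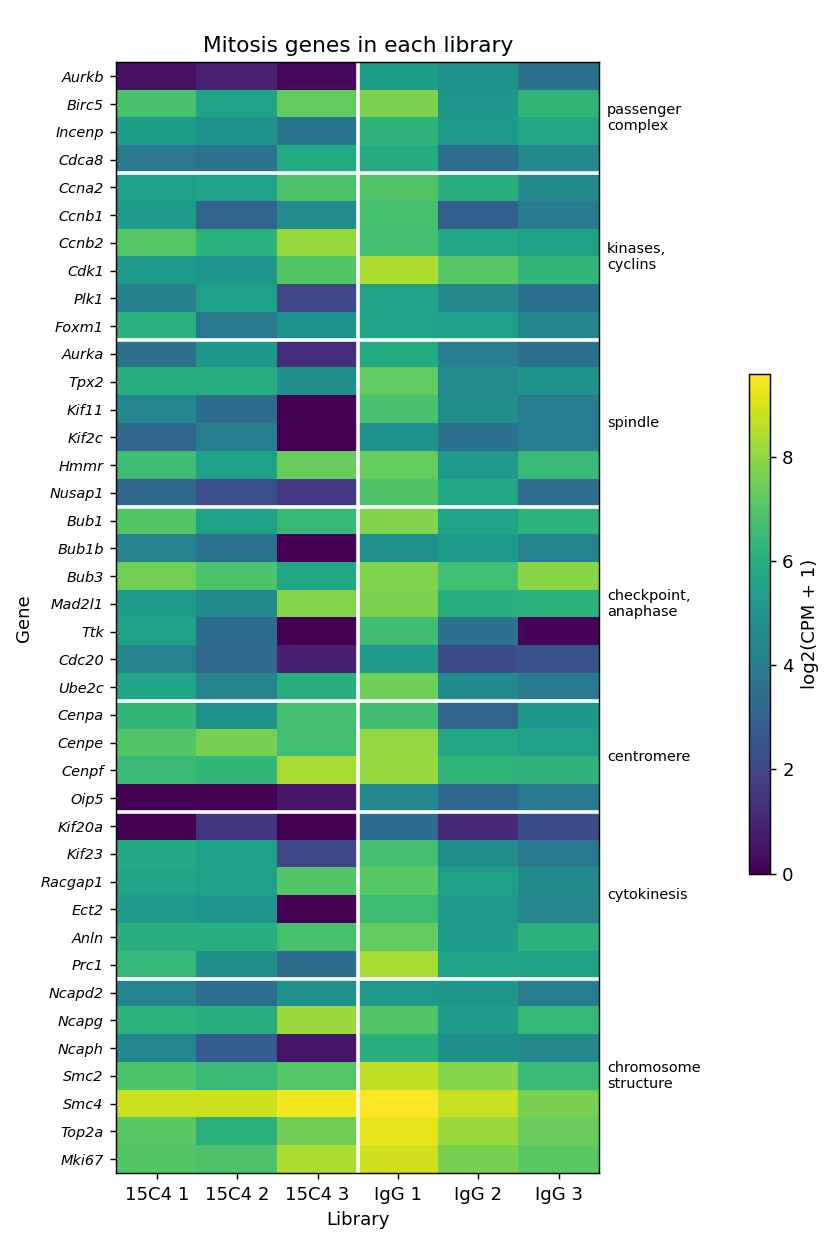
Level of the 40 genes (rows, grouped by role) in the 6 libraries (columns), as log2 of CPM plus 1 on the colour scale. Aurkb and Oip5 are dark in the 3 columns of 15C4, 15C4 3 has further dark cells such as Kif11 and Ect2, and IgG 1 is the brightest column for 31 genes.

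In the chromosomal passenger complex, Aurkb RNA was nearly absent from the 15C4 libraries while that of its partners was not. Aurkb had 3, 16 and 1 counts in 15C4 1, 2 and 3 and 203, 280 and 131 counts in IgG 1, 2 and 3. These are 0.357, 0.818 and 0.156 CPM in 15C4 and 39.2, 29.0 and 11.2 CPM in IgG, so the lowest IgG library lay well above the highest 15C4 library. The means were 0.444 ± 0.339 and 26.5 ± 14.2 CPM (SD, n = 3 each), a log2 fold change of -5.71 (SE 1.15). Aurkb ranked 6th by p among the 11144 genes. It was among them only through its IgG level, so no support is drawn from that rank. Its edgeR adjusted p was 1.00. The lowest edgeR adjusted p of any gene was 0.689. DESeq2 called Aurkb as lower (adjusted p = 8.37e-05), limma-voom did not (adjusted p = 0.960), and in the authors' deposited table it was called as lower in 15C4 (adjusted p = 2.10e-09).

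Incenp, the scaffold of the complex, was at 40.2, 28.5 and 12.2 CPM in 15C4 and at 74.4, 35.9 and 51.6 CPM in IgG, with a log2 fold change of -0.95 (SE 0.61). The groups overlapped, 15C4 1 being above IgG 2. Birc5, which encodes survivin, was at 112, 47.4 and 155 CPM in 15C4 and 204, 31.8 and 76.0 CPM in IgG, a log2 fold change of 0.11 (SE 0.72). Cdca8, which encodes borealin, was at 13.8, 11.7 and 57.6 CPM against 59.1, 10.1 and 21.4 CPM (0.02, SE 0.94). Both had overlapping groups and group means within their spread, and the fitted direction of both turned when single libraries were left out. Set against these partners within a library, where depth cancels, Aurkb had 0.888, 2.87 and 1.28 counts per 100 Incenp counts in 15C4 1 to 3, against 52.7, 80.9 and 21.8 in IgG 1 to 3. Per 100 counts of Birc5 the values were 0.318, 1.72 and 0.101 in 15C4 and 19.2, 91.2 and 14.8 in IgG. The ratios of the groups did not overlap for either partner. Aurkb itself did not overlap and reached the level of the filter in IgG alone, so these ratios are not separate support. Per kilobase of exon, Aurkb ranked 27th of the 40 genes by mean level in IgG (8.99 CPM per kb) and 38th in 15C4 (0.151 CPM per kb), above Kif20a and Oip5.

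**Figure D3:**
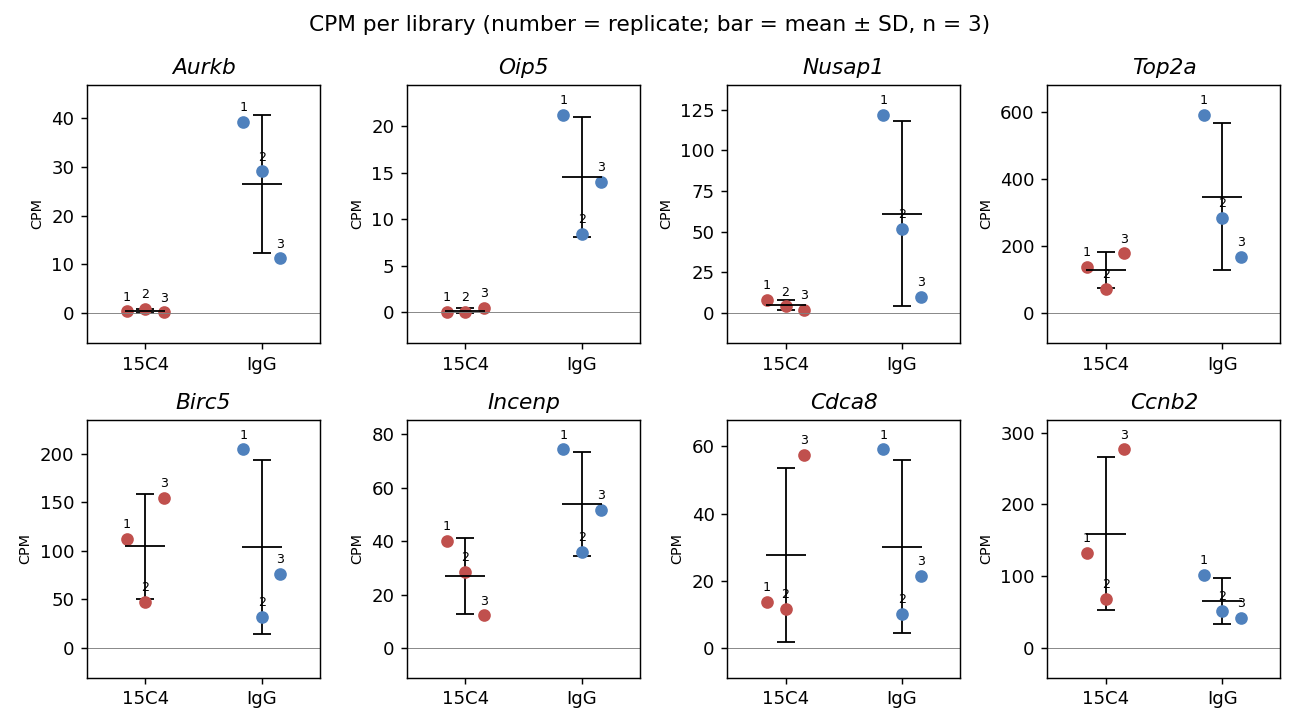
CPM of 8 mitosis genes in each library (points, numbered by replicate; red 15C4, blue IgG), with the mean and SD of 3 libraries as black bars and a linear y axis per gene. The 15C4 points of Aurkb, Oip5 and Nusap1 lie below all their IgG points, while those of Birc5, Incenp, Cdca8, Top2a and Ccnb2 overlap.

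Among centromere and kinetochore genes, Oip5 was low in 15C4 and the others were not. Oip5, also known as Mis18 beta, helps to load the centromeric histone CENP-A, which Cenpa encodes. Oip5 had 0, 0 and 3 counts in 15C4 1, 2 and 3 and 110, 81 and 164 counts in IgG 1, 2 and 3. In CPM it was listed at 0.469 in 15C4 3 and at 21.3, 8.40 and 14.1 in IgG 1, 2 and 3, so the groups did not overlap. Scaled to library totals, the IgG group held 153.5 times as much (95% counting interval 52.1 to 748), a ratio that rests on 3 counts in 15C4. It was 66.1 without 15C4 2 and 116 to 186 without any other single library but 15C4 3, without which the 15C4 counts were 0, and the ratio of mean CPM was 93.1. The interval pools the counts of each group and covers only the error of counting, not the spread between libraries. It may be too narrow even for that error, because amplified reads with no molecular identifiers do not each stand for 1 molecule. The fitted log2 fold change was -6.49 (SE 1.95, edgeR adjusted p = 1.00), a value that depends on the prior count used for 0 counts. In DESeq2 its adjusted p was 0.0530, and it was 0.0119 in DESeq2 without the filter on low counts. In the authors' deposited table its adjusted p was 7.38e-05.

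Cenpa itself was at 79.0, 28.2 and 100.1 CPM in 15C4 and 98.2, 7.68 and 33.1 CPM in IgG. Its groups overlapped, and per 100 Cenpa counts there were 0, 0 and 0.469 counts of Oip5 in 15C4 and 21.65, 109.5 and 42.5 in IgG. Cenpe, a kinesin that carries chromosomes to the spindle equator and the most abundant of these 4 genes per kilobase, was at 125.5, 194 and 102.5 CPM in 15C4 and 262, 52.3 and 43.7 CPM in IgG, a log2 fold change of 0.32 (SE 0.70). IgG 1 alone exceeded the 15C4 values. Without IgG 1 the log2 fold change of Cenpe was 1.65 (SE 0.54), past the unadjusted threshold of 0.05 in edgeR. Cenpf, a large protein of the outer kinetochore, was at 90.7, 79.9 and 322 CPM in 15C4 and 271.5, 75.2 and 73.8 CPM in IgG. Its groups overlapped, with a high value in 15C4 3 and in IgG 1.

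Among spindle genes, Nusap1, a microtubule-binding protein of the spindle, was the lowest in 15C4 relative to IgG. It was at 8.21, 4.09 and 2.03 CPM in 15C4 and at 122, 51.75 and 9.94 CPM in IgG. The groups did not overlap, but IgG 3 lay close to 15C4 1. The log2 fold change was -3.63 (SE 1.01, edgeR adjusted p = 1.00), and without IgG 1 it was -2.63 (SE 1.21), no longer past the unadjusted threshold. DESeq2 gave an adjusted p of 0.0519, or 0.0319 without the filter on low counts, and the authors' deposited table gave 0.00336. Kif11, the kinesin that pushes spindle poles apart, was at 20.95, 9.45 and 0 CPM in 15C4 and 113, 26.6 and 15.4 CPM in IgG. 15C4 1 lay above IgG 3, and the log2 fold change was -2.34 (SE 1.47). Hmmr, the most abundant spindle gene of the 6 per kilobase, overlapped, at 96.7, 43.8 and 158 CPM in 15C4 and 157, 34.1 and 88.2 CPM in IgG. Aurka, the Aurora kinase of the spindle poles and the relative of Aurkb, was at 10.6, 33.9 and 1.41 CPM in 15C4 and 57.2, 16.3 and 10.5 CPM in IgG. Unlike Aurkb it had overlapping groups (log2 fold change -0.79, SE 1.14), and its activator Tpx2 overlapped too, at 27.1 to 61.5 CPM against 23.5 to 149.5 CPM.

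Among the kinases and cyclins that start mitosis, the values went in both directions. Cdk1, the kinase that drives entry into mitosis, was at 35.6, 31.8 and 127 CPM in 15C4 and 338, 136 and 81.1 CPM in IgG, a log2 fold change of -1.37 (SE 0.74). Only 15C4 3 reached the range of the IgG libraries. Ccnb2, a B-type cyclin that binds CDK1 and the most abundant of the 6 genes per kilobase, was at 133, 68.1 and 276 CPM in 15C4 and 102, 51.96 and 42.1 CPM in IgG. IgG 1 lay above 15C4 2, so the groups overlapped (log2 fold change 1.41, SE 0.62). Without IgG 1 the log2 fold change of Ccnb2 was 1.89 (SE 0.72), past the unadjusted threshold in edgeR. Ccna2, Ccnb1, Plk1 and Foxm1, the latter a transcription factor of late cell cycle genes, had log2 fold changes between -0.89 and 0.09 and overlapping groups.

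All 7 genes of the spindle checkpoint and of anaphase had a fitted log2 fold change below 0, between -1.475 and -0.10, and none passed the unadjusted edgeR threshold of 0.05. Over all tested genes 49.3% were below 0, and without IgG 1 only Bub1b (-1.465) and Bub3 (-0.48) of the 7 were, Bub1, Mad2l1, Ttk, Cdc20 and Ube2c then lying between 0.61 and 1.67. Bub1, a checkpoint kinase and the most abundant of them per kilobase, was at 129, 43.9 and 84.0 CPM in 15C4 and 216, 45.7 and 71.6 CPM in IgG, a log2 fold change of -0.32 (SE 0.65). Its groups overlapped. Bub1b, which encodes the checkpoint protein BubR1, was at 18.1, 11.4 and 0 CPM in 15C4 and 28.0, 36.4 and 19.2 CPM in IgG. Its groups did not overlap, though 15C4 1 and IgG 3 were within 2 CPM. The others were Bub3, Mad2l1, Ttk, Cdc20 and Ube2c. Ttk, the checkpoint kinase MPS1, was unevenly detected within each group, with 370, 184 and 0 counts in 15C4 and 509, 108 and 1 in IgG. Cdc20 and Ube2c, an activator and an enzyme of the anaphase-promoting complex, were highest in IgG 1, at 35.4 and 176 CPM.

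Among cytokinesis genes, Prc1, which bundles microtubules between the separating chromosomes, was at 81.2, 26.5 and 9.54 CPM in 15C4 and 319, 46.2 and 43.5 CPM in IgG. The fitted difference of Prc1 rested on IgG 1, with a log2 fold change of -1.795 (SE 0.97) in all libraries and -0.18 (SE 0.92) without it. Kif20a, a kinesin that carries the passenger complex to the spindle midzone, had few reads, with 0, 36 and 0 counts in 15C4 and 47, 11 and 46 in IgG. Its exons also share 29.3% of their length with those of Cdc23 on the other strand, so its counts are uncertain. Kif23 and Racgap1, which together form centralspindlin, and Ect2 and Anln, which act at the contractile ring, had log2 fold changes between -1.14 and 0.29 and overlapping groups.

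Among genes of chromosome structure, Top2a was lower in 15C4 at the unadjusted threshold. Top2a, the topoisomerase that untangles sister chromosomes, was at 138, 71.0 and 178 CPM in 15C4 and 591, 283 and 167 CPM in IgG, with IgG 3 inside the 15C4 range (log2 fold change -1.33, SE 0.55). The value of Top2a was no longer past that threshold without 15C4 1, 15C4 2, IgG 1 or IgG 2, and without IgG 1 the log2 fold change was -0.69 (SE 0.54). Smc4, a core subunit of condensin, was the most abundant of the 40 genes per kilobase over the 6 libraries and overlapped, at 461, 459 and 678 CPM in 15C4 and 763, 442 and 194 CPM in IgG. Its partner Smc2 was at 115, 88.2 and 132 CPM against 407, 230 and 92.5 CPM, with IgG 3 inside the 15C4 range (log2 fold change -1.02, SE 0.53). Ncaph, the subunit that closes the ring of condensin I, was at 20.7, 5.98 and 0.469 CPM in 15C4 and 64.5, 26.55 and 21.5 CPM in IgG. The groups did not overlap, with 15C4 1 just under IgG 3 (log2 fold change -2.06, SE 1.15). Ncapg and Ncapd2, other subunits of condensin I, had log2 fold changes of 0.91 (SE 0.72) and -0.42 (SE 0.73) and overlapping groups. Mki67, the gene of the proliferation marker Ki-67, was at 128, 118 and 332 CPM in 15C4 and 470, 193 and 140.5 CPM in IgG, with overlapping groups (log2 fold change -0.34, SE 0.61).

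Over the whole list, 0 of the 40 genes passed the edgeR test at an adjusted p of 0.05, as did 0.0% of all tested genes in either direction. At an unadjusted p under 0.05, 4 were lower in 15C4 (Aurkb, Nusap1, Oip5 and Top2a), against 1.33% of all tested genes, and 0 were higher, against 1.26%. Aurkb and Oip5 could be tested only because they were higher in IgG, so neither adds to a comparison with that share. limma-voom also called 0 after adjustment (0.0% of all genes). At its unadjusted threshold Aurkb, Cdk1, Oip5 and Top2a were lower (2.56% of all genes) and 0 were higher (1.58%).

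DESeq2 gave an adjusted p for 39 of the 40, Mad2l1 being without one. It called 1 as lower, Aurkb, where it called 0.182% of all genes as lower, and 0 as higher (0.0274%). Without adjustment it had 4 lower (2.07% of all genes), the same genes as edgeR, and 1 higher, Ccnb2 (2.08%). Without the filter on low counts DESeq2 called Aurkb, Nusap1 and Oip5 as lower (0.303% of all genes) and 0 as higher (0.116%), with 4 lower (2.85%) and 1 higher (1.85%) before adjustment. The same 3 genes were lower in the authors' deposited table, which called 2.71% of its genes (383) as lower in 15C4 and 0.879% (124) as higher, with 0 mitosis genes among the latter. DESeq2 on the same counts called far fewer here, 20 lower and 3 higher, or 47 and 18 without the filter, and the settings of the authors' fit are not given, so their adjusted p-values could not be re-derived. For 5 genes (Aurkb, Nusap1, Bub1b, Oip5 and Ncaph; 12.5%) every 15C4 library lay below every IgG library, against 6.64% of all tested genes. The reverse was seen for 0, against 2.88%. No support is drawn from these shares for Aurkb and Oip5, which reached the level of the filter in IgG alone.

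**Figure D4:**
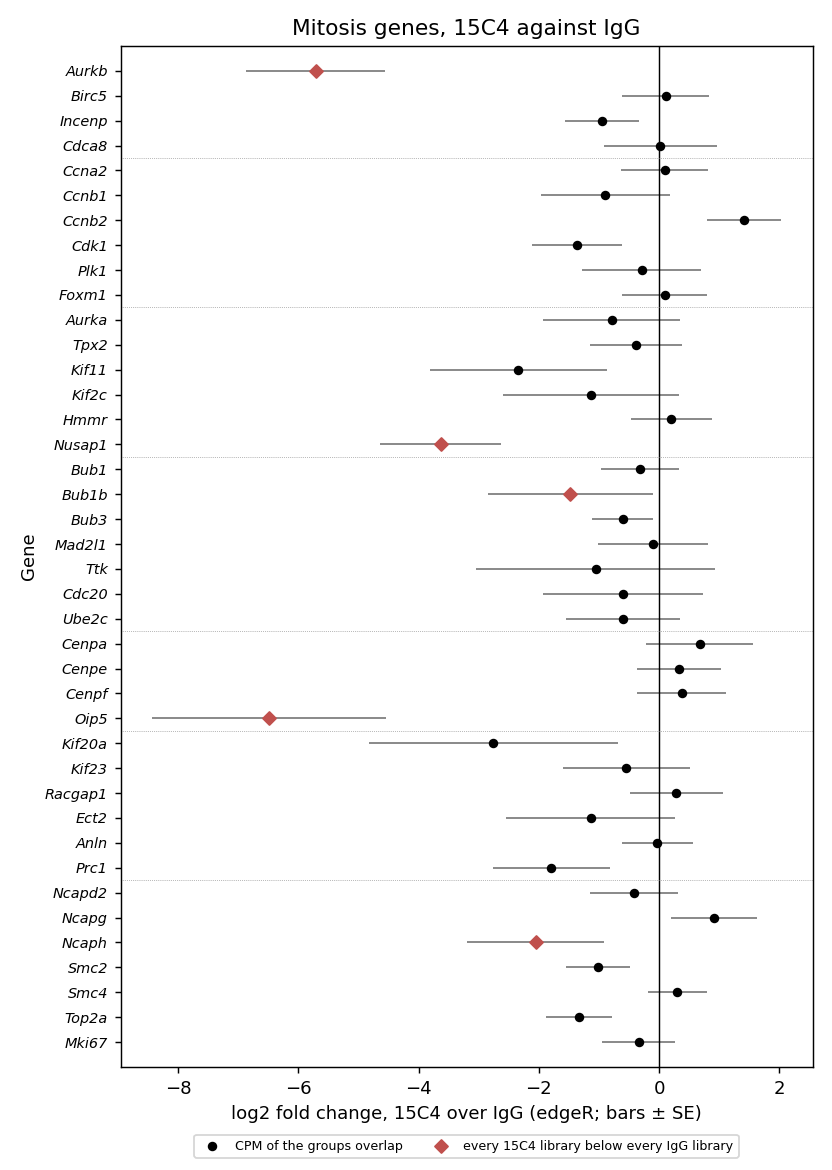
Log2 fold change of each of the 40 genes, 15C4 over IgG (x axis; points, with bars of 1 SE from edgeR), grouped by role in the order of the text. Red diamonds are the 5 genes whose libraries do not overlap between the groups, and Aurkb and Oip5 lie at -5.71 and -6.49 while most others lie within 2 of 0.

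Of the 40 genes, 28 (70.0%) had a fitted log2 fold change below 0, with a median of -0.57, against 49.3% and a median of 0.01 over all tested genes. In limma-voom, with all libraries, the median was -0.17 against -0.135 over all tested genes. In edgeR the lean depended on IgG 1. Without that library the fitted value moved up for all 40 genes, 16 were below 0 against 49.1% of all tested genes, and the median was 0.52. Aurkb (log2 fold change -5.33, SE 1.61) and Oip5 (-6.04) were then the 2 genes lower at the unadjusted edgeR threshold, and Ccnb2 and Cenpe were the 2 higher. No share of all tested genes past that threshold is given for this fit without IgG 1. No support is drawn from these counts, and with all libraries Aurkb and Oip5 reached the level of the filter in IgG alone. With 15C4 3 left out as well, 17 were below 0, the median was 0.22, and the log2 fold change of Aurkb was -4.97.

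**Figure D5:**
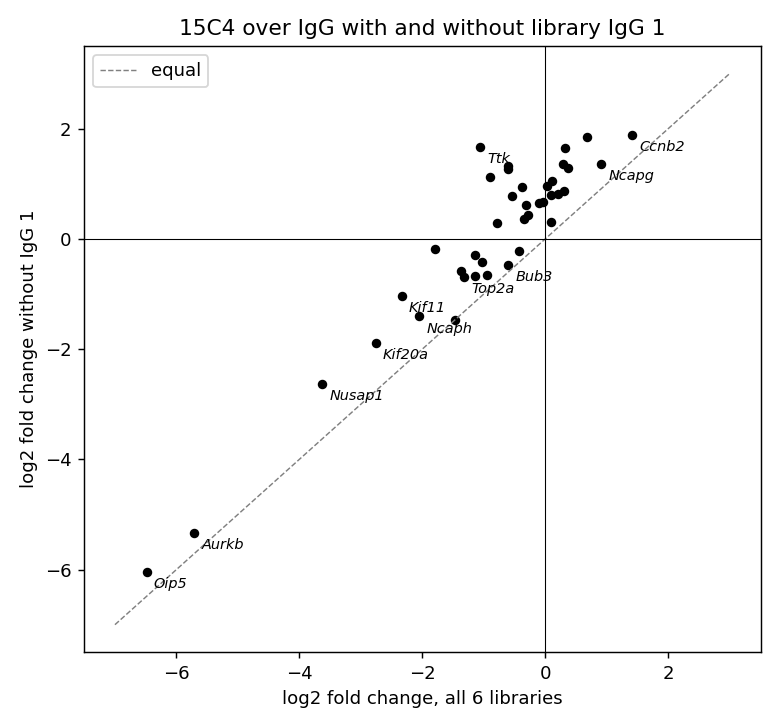
Log2 fold change of each of the 40 genes, 15C4 over IgG, in all 6 libraries (x axis) and without IgG 1 (y axis), with the dashed line marking equal values. All points lie above the line, 24 genes lie above 0 without IgG 1, and Aurkb and Oip5 stay below -5.

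The genes also differed in how they followed the rest of the list across the libraries. Spearman's rho between the CPM of a gene and the summed CPM of the other 39 over the 6 libraries had a median of 0.54, from -0.26 for Bub3 to 0.94 for Racgap1 and 1.0 for Ube2c. It was 0.03 for Aurkb, 0.20 for Oip5 and 0.14 for Nusap1. These values describe 6 libraries that share their depth and cell makeup between genes, and the deviation of IgG 1 is part of each.

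Besides the 40 genes, 3 lists of other genes of mitosis and 1 list of regulators of mitotic gene transcription were read. That last list includes inhibitors of the cell cycle such as Cdkn1a. The 4 lists hold 109 genes in all, of which 104 were tested. None passed the edgeR test in either direction. At an unadjusted p under 0.05, 3 were lower (Cenpi, Cdca2 and Cdkn1a) and 0 higher, against 1.33% and 1.26% of all tested genes. Cdca2 could be tested only because it was higher in IgG, so it adds nothing to the comparison with that share. DESeq2 called 0, or 1 without the filter on low counts, where it called 0.303% of all genes as lower and 0.116% as higher. Of the 104, 70 were fitted below 0, with a median log2 fold change of -0.35, against 49.3% and 0.01 over all tested genes. Of the 70, 16 were regulators, of which 22 were tested. Without IgG 1, 58 of 106 tested were below 0, with a median of -0.14, and 1 was lower at the unadjusted threshold. No share of all tested genes is given for that last count. Like the 40 genes, each of the first 3 lists had its highest sum in IgG 1, for example 1892 CPM for the 29 kinetochore genes against 665 to 1373 CPM elsewhere. Only the sum of the regulators of mitotic gene transcription did not, with 606 to 1011 CPM in 15C4 and 899.6 to 1070 CPM in IgG. Among these kinetochore genes, Cenpi was at 10.5, 1.23 and 4.54 CPM in 15C4 and 60.1, 22.1 and 9.51 CPM in IgG, a log2 fold change of -2.46 (SE 1.06), and Ska2 had a log2 fold change of -0.82 (SE 0.70). Both had overlapping groups. Among the 24 tested spindle, motor and cytokinesis genes, 20 were below 0, and 14 of 25 without IgG 1. The motor genes Kif18a (-2.86, SE 1.46) and Kif18b (-3.49, SE 1.75) had the smallest p of these and 0 counts in 15C4 3.

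Of the genes for entry, exit and chromosomes, Cdca2, which recruits a phosphatase to chromosomes at mitotic exit, had 8, 16 and 0 counts in 15C4 and 250, 108 and 53 in IgG. Like Aurkb and Oip5, it reached the level of the low-count filter in the IgG libraries alone. Its groups did not overlap (log2 fold change -5.07, SE 1.58, edgeR adjusted p = 1.00, DESeq2 adjusted p = 0.0629). Mastl, the kinase Greatwall, had 11, 54 and 0 counts in 15C4 and 226, 153 and 3 in IgG, where IgG 3 lay inside the 15C4 range. Of the regulators of mitotic gene transcription, Cdkn1a, which encodes the kinase inhibitor p21, was at 58.2, 50.7 and 61.8 CPM in 15C4 and at 126, 105 and 224 CPM in IgG. The 15C4 libraries were close together and all below the IgG libraries (log2 fold change -1.325, SE 0.44, edgeR adjusted p = 1.00). Lin9, a subunit of the MuvB complex that binds CHR elements, was at 1.91, 7.05 and 0 CPM in 15C4 and 28.0, 21.8 and 17.2 CPM in IgG, again without overlap (log2 fold change -2.80, SE 1.45).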

How the data were processed

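Per the labels' protocols, cDNA from the sorted cells was PCR-amplified and made into libraries with the Nextera XT kit. The authors deposited counts, whole numbers per gene symbol and library. Tools named in the submitters' processing notes are fastp, STAR 2.5b, featureCounts and DESeq2, and the notes list mm10 as well as mm9. The sources used here name no annotation, no strand setting and no single build for the counting. A table of the authors' own comparison was also deposited, with a log2 fold change (by its sign IgG over 15C4), a p-value and an adjusted p-value for each gene. Its values are quoted only as the authors' deposited table.

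Counts were TMM-normalised and tested with edgeR's quasi-likelihood test (edgeR 4.0.16 in R 4.3.3), treatment being the single term. filterByExpr was run with a minimum count of 10 and a minimum total of 15. Fold changes are 15C4 over IgG. The SE is the absolute log2 fold change divided by the root of F. p was adjusted by Benjamini-Hochberg over all 11144 tested genes. CPM are of the library total, without TMM factors, and SDs of log2 CPM use a prior count of 2. Count ratios have exact Clopper-Pearson intervals. DESeq2 1.42.0 and limma-voom (limma 3.58.1) were alternatives. The fits were also run on simulated counts, with changes planted only in genes above the median level. No result here rests on that run. Positions, exon lengths and overlaps are from GENCODE M21 on GRCm38, matched by symbol, and promoters from RefSeq.

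Genes were named with a value per library if called by a tool, among the 10 smallest unadjusted p, the most abundant of their role per kilobase or in the passenger complex. From each further list the 2 with the smallest p are named. Aurka, Bub1b, Cenpa, Cenpf, Kif20a, Mad2l1, Mki67, Ttk, Tpx2, Cdc20 and Ube2c fall outside this rule and were chosen after their values were seen. The members and lists were chosen with earlier results of these data known.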

Additional observations from a re-analysis of the deposited data

How the results depend on the processing

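Of 17 named genes, 10 kept the direction of their log2 fold change under every alternative run, among them Aurkb, Oip5 and Nusap1, and 232 of 255 alternative values kept both direction and call. None of the 17 was called in the main fit, so a kept call means that the gene stayed uncalled. Losses of an unadjusted call are not counted as changes there. Over all genes edgeR called 0, DESeq2 23, DESeq2 without the filter on low counts 65 and edgeR without it 1. Of the mitosis genes DESeq2 called 1 and DESeq2 without the filter 3, and of the genes of the further lists the latter called 1. The cause of these differences between tools was not tested.

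With 1 library left out, edgeR called 0 mitosis genes throughout. The genes lower without adjustment numbered 2 (without IgG 1) to 6 (without 15C4 3), and those higher 0 to 2. Shares of all tested genes are not given for runs with libraries left out or with a replicate block. Nor are they given for DESeq2 size factors in edgeR or for edgeR without the filter. No support is drawn from counts of genes past the unadjusted threshold in such runs. Mitosis genes fitted below 0 ranged from 16 to 35 with 1 library left out. The median log2 fold change ranged from -0.877 to 0.521, and the log2 ratio of the summed CPM from -0.677 to 0.362 (-0.376 with all libraries). Positive values came from leaving out IgG 1. Leaving out IgG 1 and 15C4 3 together, chosen after seeing the data, gave 17 below 0, a median of 0.22 and 1 gene higher without adjustment. The unadjusted call of Top2a was lost without 15C4 1, 15C4 2, IgG 1 or IgG 2 and with a replicate block, that of Nusap1 without IgG 1 and in limma-voom, and both with IgG 1 and 15C4 3 left out. The count of 1 higher gene was also found with DESeq2 size factors in edgeR, with DESeq2 with and without the filter, and with edgeR without the filter. With limma-voom 23 genes were below 0, with a median of -0.17 against -0.135 over all tested genes. In the further lists 3 genes were lower without adjustment in the main fit, Cdca2 among them (1.33% of all tested genes). There were 8 in DESeq2 with or without the filter (2.07% and 2.85% of all genes) and 7 in limma-voom (2.56%). There were 6 in edgeR without the filter and 1 to 9 with a library left out.

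Fitted directions turned for 7 of the 17 named genes, Prc1 among them, which was at -1.79 with all libraries. Of the genes given by range, Ttk went from -1.06 to 1.67 and Ccnb1 from -0.89 to 1.12 without IgG 1. Log2 fold changes with libraries left out ran from -0.373 to 1.06 for Birc5, -1.21 to 0.958 for Cdca8, -0.398 to 0.805 for Hmmr, -0.696 to 0.608 for Bub1, -0.0526 to 1.79 for Cenpe, -2.78 to 0.259 for Prc1 and -0.042 to 0.867 for Smc4. Cdca8 was at -0.128 with library totals only and -0.167 in limma-voom. The replicate numbers did not pair the libraries (correlations of same-numbered deviations -0.04, 0.06 and 0.10). With a replicate block edgeR called 0 mitosis genes, 5 were lower without adjustment, 27 were below 0, and Cdca8 was at -0.00627. In 15C4 a library's floor of 3 counts is 0.153 to 0.469 CPM, and Oip5 was at or below it in every library. Kif20a and Aurkb were too, except in 15C4 2, with 36 and 16 counts. The size of their fold changes is thus uncertain. Oip5 had 0 counts in 15C4 2 although that library had the most counts, 19572202.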
